A study of Homo sapiens with 16 samples.

Results

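The genes described here are 60 genes of the short arm of chromosome 2 (2p) that start within the first 40 Mb of the chromosome. They were picked as a stretch because its RNA was higher in the venetoclax-resistant KMS12PE clones A and C, and flat in clone D, than in the parental cells. The KMS12PE values of these genes therefore describe the choice and carry no test. Of the 60 members, 54 were listed and tested in KMS12PE and 54 in KMS27, with 52 in both lines. RNF144A, ASAP2, TRIB2 and MAPRE3 were listed in neither line. ID2 and MBOAT2 were missing from the KMS12PE table, and KLF11 and DNMT3A from the KMS27 table. The tables of the whole series hold 15529 genes, and a further 84 listed genes of the same stretch in KMS12PE are not members.

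Poly-A RNA was measured in 16 libraries from KMS12PE and KMS27, human lines of malignant plasma cells (multiple myeloma) that carry the t(11;14) translocation. The KMS12PE populations were clones A, C and D and the parental cells, with replicates 1 and 3 of each. The KMS27 populations were clones B5, C1 and C5 and the parental cells, with replicates 1 and 2 of each. Every clone grew out of 1 cell after exposure to a high dose of venetoclax, a drug that blocks BCL2, and was then kept in 100 nM of it. No drug dose is given for the parental cells, so drug, selection and single-cell origin cannot be told apart in any difference between a clone and its parental cells. The 2 libraries of a population may be cultures or technical repeats, and p-values measure only the spread between them. Whole-genome sequencing, named in the series' design, was not analysed here, so the number of DNA copies of the stretch is not known from these values.

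Neighbouring genes on a chromosome mostly have unrelated jobs and are mostly read from their own promoters. Some lie start to start on opposite strands, such as the members ITGB1BP1 and CPSF3, and may share a promoter region. When cancer cells gain or lose a stretch of chromosome, the DNA copies of neighbours change together, though their RNA need not. Whether that happened here was not tested. The 2p members include enzymes that supply building blocks (ODC1 for polyamines, CAD for pyrimidines), enzymes of mitochondrial fat burning (HADHA, HADHB), chromatin regulators (DNMT3A, ASXL2, E2F6), genome caretakers (SMC6, GEN1, RNASEH1), and signalling proteins (ADAM17, ROCK2, RHOB, SOS1).

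Promoter windows of 4 members are shown because ODC1 and CAD were higher with the stretch in clones A and C, while KLF11 and RHOB in the same stretch were not. Each runs 5′ to 3′ along its gene from 250 bases before the start to 50 after it, as RefSeq gives it on GRCh38.p14. GENCODE puts the start of KLF11 further upstream, at 10042849. The whole KLF11 window therefore lies inside the gene's GENCODE span and not before that start. Capitals mark the GC box GGGCGG and the E-box CACGTG, read on both strands. The windows are chr2:10448278-10448577 on the minus strand for ODC1, and chr2:27217119-27217418 for CAD, chr2:10043579-10043878 for KLF11 and chr2:20446824-20447123 for RHOB, all on the plus strand.
ODC1: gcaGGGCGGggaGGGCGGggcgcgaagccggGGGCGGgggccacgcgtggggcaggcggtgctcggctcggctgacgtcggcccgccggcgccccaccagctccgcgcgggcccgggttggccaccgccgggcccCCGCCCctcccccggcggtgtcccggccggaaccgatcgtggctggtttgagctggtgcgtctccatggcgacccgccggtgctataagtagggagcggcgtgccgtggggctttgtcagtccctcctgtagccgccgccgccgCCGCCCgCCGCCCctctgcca
CAD: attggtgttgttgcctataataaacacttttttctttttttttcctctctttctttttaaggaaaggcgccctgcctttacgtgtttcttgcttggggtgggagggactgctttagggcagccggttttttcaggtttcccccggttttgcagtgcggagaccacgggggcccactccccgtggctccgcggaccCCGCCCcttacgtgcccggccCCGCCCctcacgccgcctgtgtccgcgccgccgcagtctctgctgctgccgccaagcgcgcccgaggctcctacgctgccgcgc
KLF11: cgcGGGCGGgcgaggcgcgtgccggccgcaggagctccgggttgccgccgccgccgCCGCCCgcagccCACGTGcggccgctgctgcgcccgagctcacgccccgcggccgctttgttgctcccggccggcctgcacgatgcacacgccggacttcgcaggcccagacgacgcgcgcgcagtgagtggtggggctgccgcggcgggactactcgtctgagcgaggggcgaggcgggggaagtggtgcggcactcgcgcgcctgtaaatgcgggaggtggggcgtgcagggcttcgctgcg
RHOB: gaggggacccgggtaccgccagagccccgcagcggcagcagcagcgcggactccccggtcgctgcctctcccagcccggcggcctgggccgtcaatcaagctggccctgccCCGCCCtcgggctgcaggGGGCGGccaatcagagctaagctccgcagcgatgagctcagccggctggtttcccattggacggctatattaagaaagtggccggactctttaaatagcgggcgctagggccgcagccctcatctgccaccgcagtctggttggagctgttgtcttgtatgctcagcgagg
The windows of ODC1 and CAD held 6 and 2 GC boxes and no E-box, that of KLF11 held 2 GC boxes and 1 E-box, and that of RHOB held 2 GC boxes. Windows were found for 58 of the 60 members, WDR35 and NOL10 being the others. A GC box lay in 72.4% of the members' windows, against 44.6% of all 27305 windows of that length. An E-box lay in 10.3% of members' windows and 7.43% of all, the CCAAT box in 27.6% and 35.7%, and TATAAA in 1.72% and 12% (both strands, each motif counted by itself). The 27305 windows outnumber the 15529 genes of the series, so they include genes not listed in either line, unlike most members. The 2 sets are therefore not alike, and no trait of the stretch is read from these shares. These matches are letters in a window and say nothing of which factor binds there.

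The raised stretch ended near 30 Mb, short of the 40 Mb that the rule allows. Among the 47 tested members that start before 30 Mb, the median log2 fold change against parental cells was 0.36 in clone A (quartiles 0.26 and 0.44), 0.55 in clone C (0.44 and 0.69) and 0.02 in clone D. These medians are 1.28-fold in clone A and 1.46-fold in clone C. The fold change was above 0 for 45 of the 47 members in clone A, 44 in clone C and 25 in clone D. Over all 12279 genes tested, the medians were 0.00, -0.00 and 0.01 in clones A, C and D. The 7 members from 30 Mb on (SPAST, YIPF4, BIRC6, STRN, CEBPZ, SOS1 and SRSF7) had medians of -0.12, 0.00 and 0.11. The split at 30 Mb was chosen after the values were seen.

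**Figure D1:**
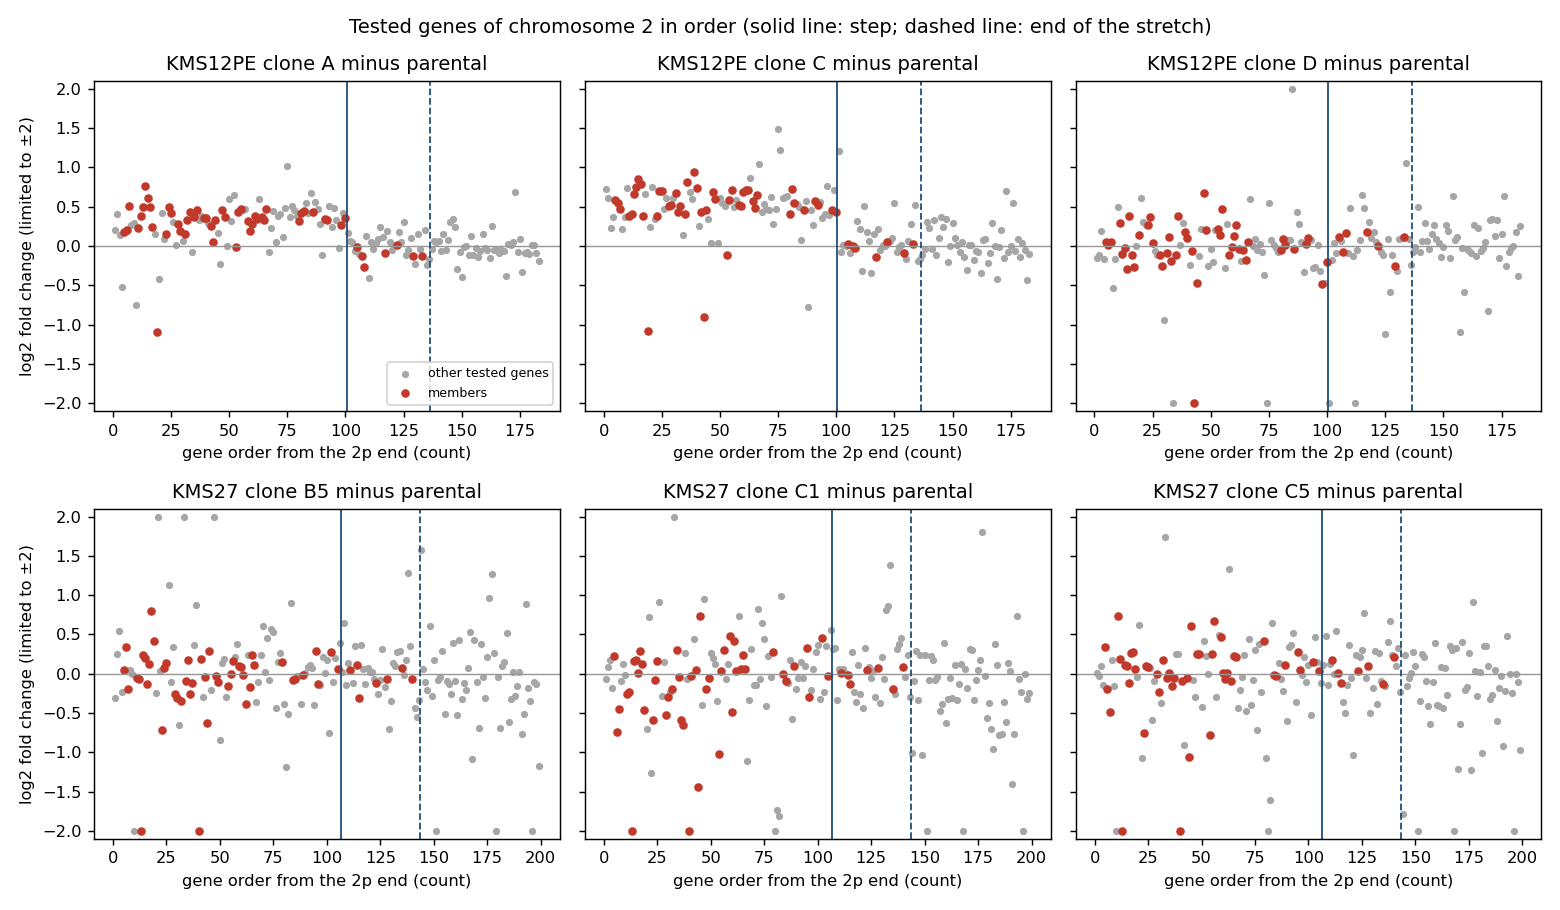
Log2 fold change of each clone against its parental cells (y axis, held within ±2) for tested genes of chromosome 2 in order from the end of 2p (x axis, count of genes). Red points are members and grey points other genes; the solid line is the 30 Mb step and the dashed line the end of the 40 Mb stretch. In KMS12PE clones A and C nearly all points left of the solid line lie above 0 and then drop to about 0 to its right, while clone D and the 3 KMS27 clones show no such step.

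Genes on either side of the step are given by name. WDR43, a factor of ribosome assembly and the last tested member before it (chr2:28894643-28948222), had log2 fold changes of 0.36 ± 0.10 in clone A, 0.43 ± 0.10 in clone C and -0.20 ± 0.10 in clone D (SE). Its neighbour TRMT61B, a mitochondrial tRNA methyltransferase that is not a member, had 0.42, 0.71 and -0.47. SPAST, a protein that severs microtubules and the first tested member after the step (chr2:32063547-32157637), had -0.01 ± 0.12, 0.02 ± 0.12 and 0.12 ± 0.12. Between them, LCLAT1 had 0.07, -0.07 and -0.17, MEMO1 had 0.05, 0.02 and 0.04, and DPY30 had -0.06, 0.01 and -0.09. Not every gene kept to the step. FOSL2, before it, had -0.03 in clone A, 0.39 in clone C and -0.32 in clone D (SE 0.21, 0.20 and 0.21), and YPEL5, the first tested gene after it, had 0.16 ± 0.54 in clone A and 1.22 ± 0.49 in clone C. YPEL5 was a low gene, with 22 and 33 counts in clone C and 0 and 1 in clone D, against 6 and 5 in parental cells. Scaled to library size these are 1.94 and 2.33 CPM in clone C and 0 and 0.0890 in clone D, against 1.05 and 0.786. No second step lay at the 40 Mb limit of the rule. MAP4K3 and THUMPD2, just inside it, had -0.24 and -0.17 in clone A and -0.19 and -0.17 in clone C, and EML4 and COX7A2L, just outside it, had -0.03 and 0.07 in clone A and -0.12 and -0.04 in clone C. SOS1-IT1 inside and MTA3 outside completed the 3 genes on each side, with 0.20 and 0.05 in clone A and 0.52 and 0.30 in clone C.

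Tested genes of the stretch that are not members followed the same profile. The 53 before 30 Mb had medians of 0.33 in clone A, 0.52 in clone C and -0.02 in clone D, beside 0.36, 0.55 and 0.02 for the 47 members. The stretch was chosen on the same contrast, so these values too are a description. In windows of 10 Mb along the genome (285 windows with at least 10 tested genes), the windows of chromosome 2 from 0 to 10, 10 to 20 and 20 to 30 Mb had medians of 0.26, 0.31 and 0.37 in clone A and 0.57, 0.52 and 0.52 in clone C. They were the highest 3 windows of the genome in both clones, and the fourth had 0.17 in clone A and 0.22 in clone C. The window from 30 to 40 Mb had 0.01 in both clones. The 20 windows further along chromosome 2 stayed between -0.09 and 0.06 in clone A, between -0.10 and 0.04 in clone C and between -0.13 and 0.08 in clone D.

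**Figure D2:**
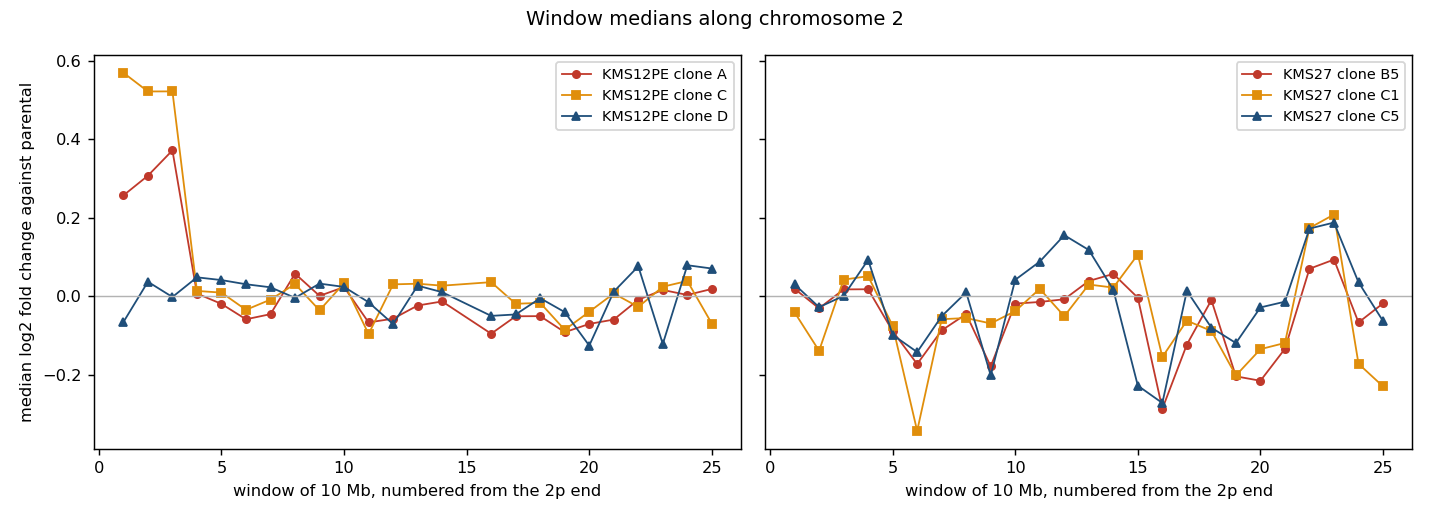
Median log2 fold change against parental cells (y axis) in windows of 10 Mb of chromosome 2 numbered from the end of 2p (x axis), with 1 line per clone, KMS12PE on the left and KMS27 on the right. The first 3 windows of clone C (0.57, 0.52 and 0.52) and clone A (0.26, 0.31 and 0.37) stand above all later ones, and clone D stays near 0. The first 3 windows of the KMS27 clones lie between -0.14 and 0.04, within the spread of their later windows.

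Each library showed its clone's shift. The median log2 ratio of the 47 members before 30 Mb to the parental mean was 0.369 and 0.369 in the clone A libraries, 0.554 and 0.546 in the clone C libraries, and 0.0469 and -0.0329 in the clone D libraries, against 0.0173 and -0.0173 in the parental libraries. Clones A and C lay apart from the parental libraries and from each other, and clone D overlapped the parental libraries. Clone C exceeded clone A for 43 of these 47 members (91.5%, against 49.8% of all genes tested), with a median difference of 0.20 on the log2 scale. It also did so for 6 of the 7 members from 30 Mb on, with a smaller median difference of 0.04. In clone A both libraries lay above both parental libraries for 42 of the 47 members, where 18.4% of all genes tested did so. The count was 44 of 47 in clone C, where 19.2% of all genes did so, and 11 of 47 in clone D, where 20.8% did. Both libraries lay below both parental libraries for 1, 2 and 10 of the 47 members in clones A, C and D, and for 18.4%, 18.9% and 22% of all genes. The 3 comparisons share the 2 parental libraries.

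**Figure D3:**
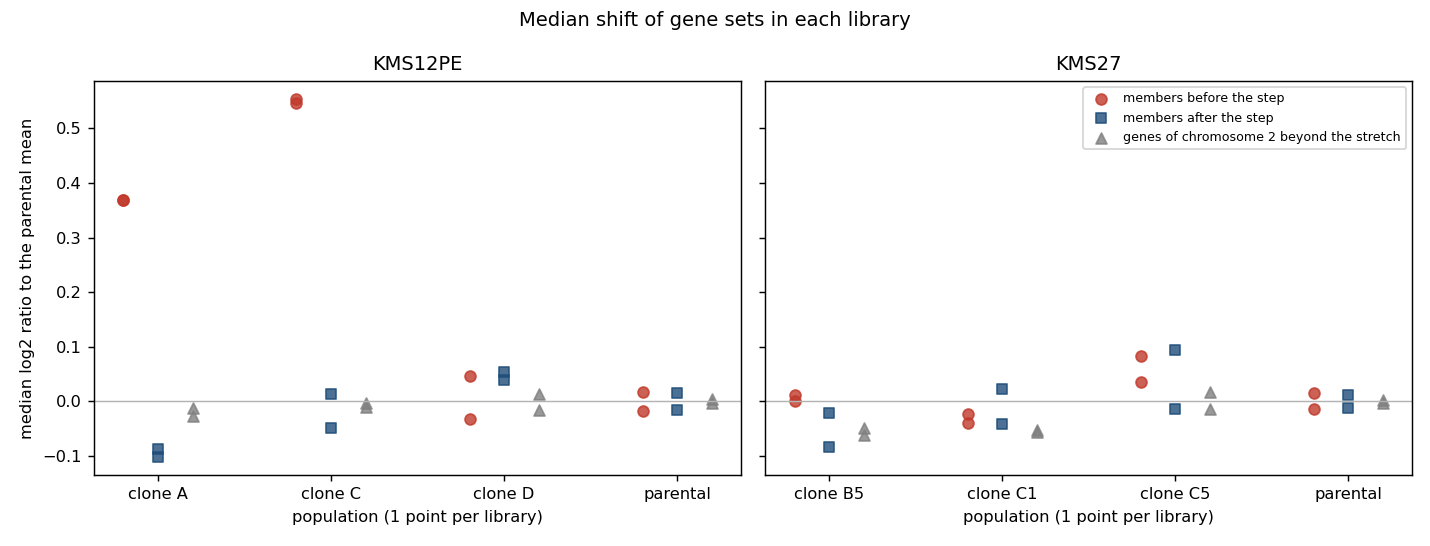
Median log2 ratio to the parental mean (y axis) of members before the step at 30 Mb (circles), members after it (squares) and genes of chromosome 2 beyond 40 Mb (triangles), 1 point per library by population (x axis). The circles stand at 0.369 in clone A and at 0.554 and 0.546 in clone C, above every other point of either line.

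Single genes moved by little, and in the main fit most members did not pass the test one at a time. Under an adjusted p of 0.05 in the edgeR quasi-likelihood test, 2 of the 54 members were called in clone A, where 0.448% of all genes were called, 20 in clone C, where 1.78% were, and 3 in clone D, where 5.16% were. All 22 calls in clones A and C were higher than parental, and clone D had 2 higher (ADAM17 and ATAD2B) and 1 lower (RHOB). Of all genes, 0.212% were called higher and 0.236% lower in clone A, 0.904% and 0.88% in clone C, and 1.86% and 3.31% in clone D. With the replicate number as a block the counts were 32, 43 and 9, where the same fit called 3.65%, 7.08% and 16.4% of all genes. Leaving out any 1 library gave 0 to 2 in clone A, 3 to 28 in clone C and 0 to 3 in clone D. Nothing is read from these counts, since the members were chosen on the same comparisons.

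Of the 9 tested members of metabolism before 30 Mb, 8 were above 0 in clone A and 8 in clone C, with medians of 0.33 and 0.65, and the clone D median was 0.02. They ranged from -0.01 (TP53I3) to 0.76 (IAH1) in clone A and from -0.12 to 0.76 in clone C. ODC1 (chr2:10439968-10448504), the rate-limiting enzyme of polyamine synthesis, measured 664 and 589 CPM (counts scaled to the size of the library) in clone A, 801 and 636 in clone C and 636 and 512 in clone D, against 432 and 456 in parental cells. All 6 clone libraries stood above both parental libraries, and the log2 fold changes were 0.50 ± 0.14, 0.69 ± 0.14 and 0.37 ± 0.14 (SE). CAD (chr2:27217390-27243943), which carries out the opening steps of pyrimidine synthesis, measured 311 and 295 CPM in clone A, 321 and 327 in clone C and 233 and 236 in clone D, against 263 and 224 in parental cells. Clones A and C were clear of the parental libraries and clone D lay within their range. HADHA (chr2:26190635-26244726), a subunit of the mitochondrial trifunctional protein of fat burning, measured 613 and 572 CPM in clone A, 698 and 621 in clone C and 449 and 384 in clone D, against 484 and 457 in parental cells. HADHB, its partner subunit read from the other strand, had log2 fold changes of 0.47, 0.65 and 0.05, beside 0.33, 0.49 and -0.18 for HADHA.

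IAH1 (chr2:9473658-9496543), a predicted esterase, was the member with the highest mean fold change over clones A and C. It measured 29.9 and 28.2 CPM in clone A, 29.3 and 28.7 in clone C and 16.7 and 11.8 in clone D, against 16.3 and 17.9 in parental cells, which gives 0.76 ± 0.17 in both clones A and C. Its gene overlaps that of ADAM17 on the other strand, and how the counting treated strand is not given, so reads of the pair cannot be told apart. TP53I3, a quinone oxidoreductase and a target gene of p53, was the metabolic member that did not follow: it measured 3.71 and 2.79 CPM in clone A, 2.47 and 3.46 in clone C and 4.26 and 3.38 in clone D, against 3.34 and 3.14 in parental cells. Its clone and parental libraries overlapped, and its SE of 0.32 in clone A is close to the shift of the stretch.

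The 3 genome caretakers had medians of 0.46 in clone A, 0.47 in clone C and 0.05 in clone D. RNASEH1, which removes RNA paired with DNA, had 0.51 ± 0.08 and 0.47 ± 0.08 in clones A and C. SMC6, a core subunit of the SMC5/6 complex of DNA repair, measured 109 and 128 CPM in clone A, 119 and 126 in clone C and 80.3 and 89.8 in clone D, against 94.7 and 89.2 in parental cells. GEN1, a nuclease that cuts crossed DNA strands, overlaps SMC6 on the other strand and was less even: 65.3 and 85.6 CPM in clone A, 83.7 and 109 in clone C and 54.9 and 87.1 in clone D, against 47.8 and 62.1 in parental cells. The 2 libraries of each population lay far apart for GEN1, and its SE was 0.24.

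Members that act on transcription and chromatin split into a majority that followed the stretch and a single one, KLF11, that measured lower without a call. E2F6, a repressor of the E2F family, measured 71.0 and 71.8 CPM in clone A, 91.8 and 88.3 in clone C and 51.7 and 53.7 in clone D, against 63.8 and 61.6 in parental cells, and all 3 clones were clear of the parental values, clone D on the lower side. DNMT3A, a DNA methyltransferase that sets new methylation, measured 20.1 and 24.0 CPM in clone A, 24.2 and 34.1 in clone C and 16.9 and 22.3 in clone D, against 16.7 and 19.6 in parental cells. Its log2 fold changes were 0.28 ± 0.21, 0.68 ± 0.21 and 0.12 ± 0.22. ASXL2, a chromatin regulator of the Polycomb deubiquitinase complex, had 0.34, 0.71 and -0.04, and NCOA1, a coactivator of nuclear receptors, had 0.47, 0.71 and 0.47. ATAD2B, a bromodomain protein, had 0.46, 0.69 and 0.68, so that clone D equalled clone C for this gene while most of its neighbours were flat there. TAF1B, a subunit of the RNA polymerase I selectivity factor, had 0.24, 0.38 and -0.27.

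KLF11 (chr2:10042849-10054836), a zinc finger repressor, measured lower in clones A and C, where its neighbours measured higher. It measured 4.04 and 3.40 CPM in clone A, 4.58 and 2.96 in clone C and 10.6 and 7.12 in clone D, against 9.31 and 6.60 in parental cells. Both clones A and C were below both parental libraries, with log2 fold changes of -1.10 ± 0.33 and -1.08 ± 0.32, and clone D had 0.14 ± 0.31. KLF11 was not called in any KMS12PE clone. Its counts were low, at 36 and 44 in clone A and 52 and 42 in clone C, against 53 and 42 in the smaller parental libraries. Its closest tested member neighbours, TAF1B and HPCAL1, had 0.24 and 0.15 in clone A and 0.38 and 0.39 in clone C.

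The signalling members held a second gene that did not rise with the stretch. RHOB (chr2:20447074-20449445), a small GTPase, measured 15.1 and 9.52 CPM in clone A, 7.40 and 5.29 in clone C and 2.68 and 1.96 in clone D, against 13.9 and 9.74 in parental cells. Clone A overlapped the parental libraries, clone C lay below them and clone D lowest, with log2 fold changes of 0.05 ± 0.30, -0.90 ± 0.31 and -2.37 ± 0.35. The SE in clone A is close to the shift of the stretch, and RHOB was not called in clone A or C. ROCK2, a kinase that acts on the actin cytoskeleton, followed the stretch instead: 119 and 131 CPM in clone A, 142 and 151 in clone C and 92.3 and 98.6 in clone D, against 105 and 101 in parental cells. ADAM17, the protease that sheds tumour necrosis factor from the cell surface, measured 106 and 102 CPM in clone A, 129 and 116 in clone C and 91.6 and 85.7 in clone D, against 68.0 and 67.7 in parental cells. It was above parental in all 6 clone libraries, by 0.61 ± 0.09, 0.85 ± 0.09 and 0.38 ± 0.09. YWHAQ, a 14-3-3 adaptor protein, measured 915 and 832 CPM in clone A, 1168 and 974 in clone C and 640.5 and 505 in clone D, against 629 and 611 in parental cells. Over the 10 signalling members before 30 Mb the medians were 0.30, 0.45 and -0.11.

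All 5 tested members of RNA processing before 30 Mb were above 0 in clones A and C, with medians of 0.42 and 0.51, and the clone D median was -0.06. CPSF3, the endonuclease that cuts transcripts before the poly-A tail is added, measured 206 and 199 CPM in clone A, 244 and 213 in clone C and 153 and 132 in clone D, against 146 and 142 in parental cells. DDX1, an RNA helicase of the tRNA ligase complex, measured 329.8 and 332 CPM in clone A, 367 and 329 in clone C and 219 and 210.1 in clone D, against 239 and 251 in parental cells. Clones A and C were above and clone D below both parental libraries for DDX1. NOL10 and PUM2, a nucleolar protein and a repressor that binds messenger RNA, had 0.42 and 0.26 in clone A and 0.70 and 0.43 in clone C.

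All 9 members of membrane traffic and the cytoskeleton before 30 Mb were likewise above 0 in both clones, with medians of 0.36 and 0.58, and 0.10 in clone D. WDR35 (chr2:19910260-19990131), a subunit of the transport complex of cilia, had the highest fold change of any member in clone C. It measured 66.6 and 68.2 CPM in clone A, 101 and 100.1 in clone C and 63.4 and 55.7 in clone D, against 52.0 and 52.9 in parental cells. Its log2 fold changes were 0.36 ± 0.09, 0.94 ± 0.09 and 0.18 ± 0.10, and every clone library was above both parental libraries. UBXN2A, a ubiquitin-related cofactor and the only tested member of its role before the step, had 0.37, 0.60 and 0.21.

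**Figure D4:**
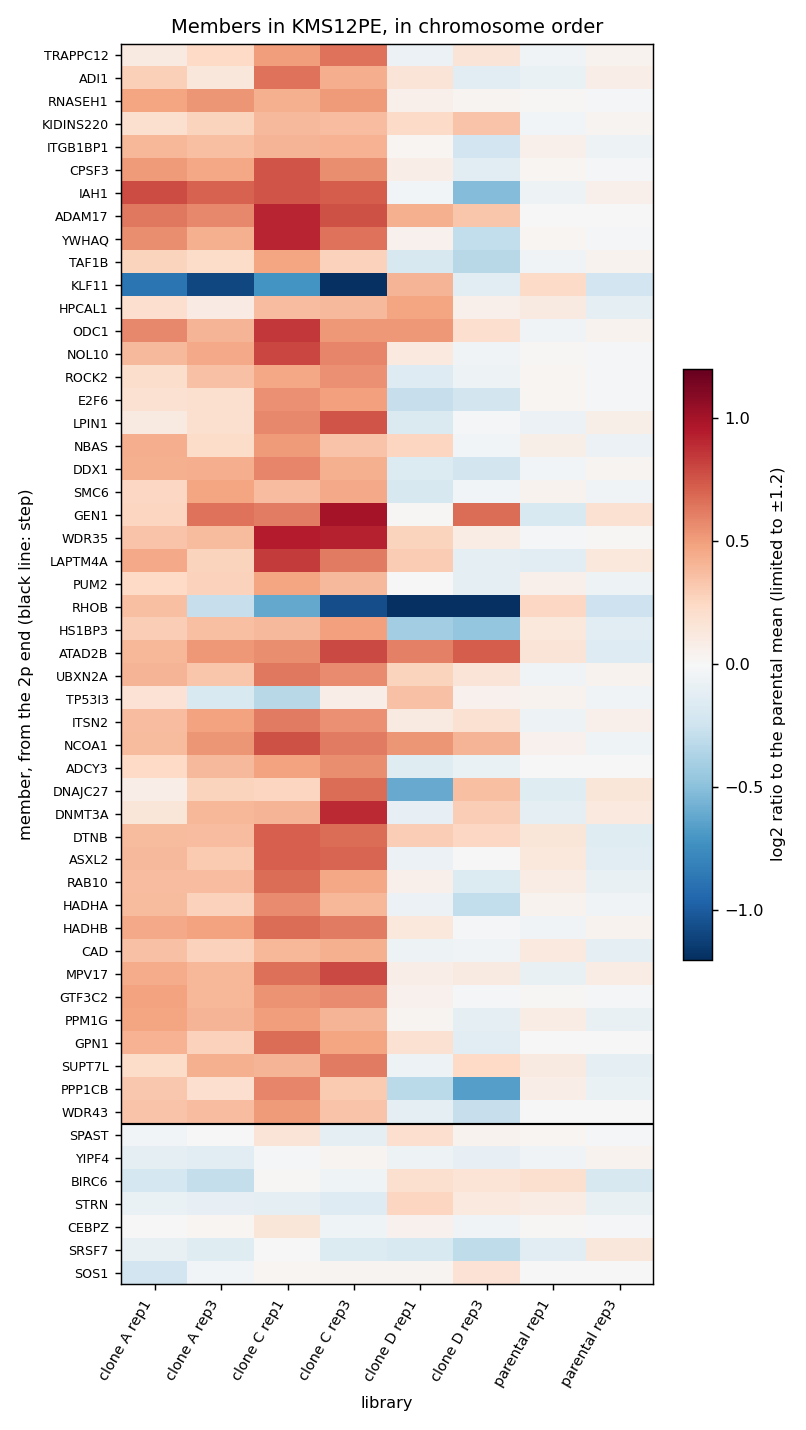
Log2 ratio to the parental mean (colour, held within ±1.2, red higher and blue lower) of the 54 tested members in chromosome order (rows) in the 8 KMS12PE libraries (columns), with a black line at the 30 Mb step. Clones A and C are red down to the line with KLF11, RHOB and TP53I3 as exceptions, and pale below it.

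After the step, the members stayed near their parental level. BIRC6, a giant inhibitor of apoptosis and ubiquitin ligase, measured 229.5 and 218 CPM in clone A, 268 and 257 in clone C and 303 and 298 in clone D, against 304 and 233 in parental cells. The parental libraries spanned the values of clones C and D, and clone A lay below them. SOS1, the exchange factor that loads RAS with GTP, measured 52.8 and 60.7 CPM in clone A, 63.1 and 63.5 in clone C and 63.6 and 70.3 in clone D, against 62.4 and 62.1 in parental cells. STRN, a scaffold of the STRIPAK phosphatase complex, measured 80.6 and 79.2 CPM in clone A, 78.3 and 76.6 in clone C and 102 and 92.1 in clone D, against 90.6 and 79.8 in parental cells. SRSF7, a splicing factor, measured 299 and 288 CPM in clone A, 319 and 284 in clone C and 280.3 and 257 in clone D, against 290.0 and 349 in parental cells. None of the 7 members after the step was called in any KMS12PE clone.

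Several members overlap a neighbour on the other strand, and with strand handling not given their reads may be shared. Beside IAH1 with ADAM17 and SMC6 with GEN1, these are RNASEH1 with RNASEH1-AS1, HADHA with HADHB, GPN1 with SUPT7L, ADCY3 with CENPO, TP53I3 with FAM228B, CEBPZ with CEBPZOS and NDUFAF7, ITGB1BP1 with ASAP2, GPN1 with CCDC121 and SUPT7L with SLC4A1AP.

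The genes that work with the members were tested next, to see whether pathway partners on other parts of the genome moved too. The 151 partners in 21 lists include the other enzymes of polyamine and pyrimidine synthesis, beta-oxidation, the SMC5/6 complex, RNase H2, the SAGA coactivator, STRIPAK and the TRAPP tethering complexes, and 147 of them were tested. Their median log2 fold change was 0.01 in clone A, -0.02 in clone C and -0.02 in clone D. With edgeR's quasi-likelihood test, 0 partners were called in clone A (7 with an unadjusted p under 0.05, and 0 by DESeq2), 1 in clone C and 2 in clone D, where 0.448%, 1.78% and 5.16% of all genes were called. With the replicate number as a block the counts were 1, 5 and 22, of which 1, 4 and 14 were lower than parental, and this fit called 3.65%, 7.08% and 16.4% of all genes. The 12 tested partners of ODC1 and ADI1 in polyamine synthesis and methionine salvage had medians of -0.04 in clone A and -0.09 in clone C, beside 0.50 and 0.69 for ODC1. The 10 of beta-oxidation had -0.05 and -0.09, beside 0.33 and 0.49 for HADHA. Over the 21 lists the medians ran from -0.20 (partners of ID2, the E proteins) to 0.24 (RNase H2, 3 genes) in clone A and from -0.15 to 0.11 in clone C.

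The partners that passed lay on other chromosomes. FOXK2, a transcription factor counted with the Polycomb deubiquitinase partners of ASXL2, fell to 76.3 and 76.6 CPM in clone C, with 189 and 184 in clone A and 185 and 178 in clone D, against 196 and 175 in parental cells (log2 fold change -1.28 ± 0.09 in clone C, edgeR adjusted p = 0.000793). USP22, the ubiquitin protease of SAGA, fell to 7.25 and 12.4 CPM in clone D, with 157 and 149 in clone A and 153 and 143 in clone C, against 146 and 134 in parental cells (-3.77 ± 0.18, edgeR adjusted p = 7.28e-06). Both calls held when any 1 library was left out. TADA2B, an adaptor of SAGA, measured 38.6 and 37.6 CPM in clone D, with 33.9 and 34.8 in clone A and 37.3 and 34.3 in clone C, against 25.1 and 28.1 in parental cells (0.51 ± 0.11, edgeR adjusted p = 0.0331), a call that was lost with DESeq2 and without any 1 library other than clone C replicate 1 (adjusted p up to 0.152). SAGA contains the member SUPT7L, which had 0.33, 0.52 and 0.10 in clones A, C and D.

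KMS27, which had no part in the choice of the members, allowed the same genes to be tested in another line. The stretch as a whole did not shift there: the 54 tested members had a median log2 fold change of -0.03, -0.01 and 0.04 in clones B5, C1 and C5, beside 0.00, -0.01 and -0.01 for all 14088 genes. With edgeR's quasi-likelihood test adjusted over all genes, 2 members rose and 3 fell in clone B5, 2 rose and 8 fell in clone C1, and 5 rose and 4 fell in clone C5. These are 9.26%, 18.5% and 16.7% of the members, where 21%, 21.6% and 19.7% of all genes were called. Over all genes 10.8%, 11.5% and 10.4% rose and 10.2%, 10.1% and 9.28% fell. Both clone libraries lay above both parental libraries for 10, 14 and 19 members, where 28.8%, 34.1% and 33.6% of all genes did, and below them for 13, 20 and 10, where 27.6%, 34% and 32.2% did. The counts hung on single libraries, as did the counts over all genes. For clone B5 the members' count was 3 without parental replicate 1 or replicate 2, where 8.55% and 9.47% of all genes were called, and 16 without clone B5 replicate 1, where 35.1% were. For clone C1 it was 4 without parental replicate 1 or 2 (7.31% and 10.1% of all genes), 3 and 6 without clone C1 replicate 1 and 2 (5.96% and 10.9%), and 19 and 18 without clone B5 replicate 1 and 2 (35.9% and 35.5%). For clone C5 it was 4 and 5 without parental replicate 1 and 2 (8.03% and 8.49%), and 4 without either clone C5 library (7.14% and 6.83%). Whether the stretch moved differently in KMS12PE and KMS27 was not tested.

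WDR35, MBOAT2 and RHOB fell in all 3 KMS27 clones. WDR35 measured 1.66 and 1.75 CPM in clone B5, 1.33 and 1.31 in clone C1 and 2.76 and 1.88 in clone C5, against 11.9 and 9.95 in parental cells. Every clone library was far below both parental libraries, and the log2 fold changes were -2.68 ± 0.27, -3.05 ± 0.26 and -2.23 ± 0.25 (edgeR adjusted p = 0.000250, 0.000151 and 0.000509). MBOAT2 (chr2:8852690-9003813), an acyltransferase that remodels phospholipids, measured 0.166 and 0.638 CPM in clone B5, 0.675 and 0.691 in clone C1 and 1.35 and 1.12 in clone C5, against 9.32 and 10.7 in parental cells. The clone libraries stood far below the parental ones again, with log2 fold changes of -4.70 ± 0.45, -3.87 ± 0.40 and -3.02 ± 0.38 (edgeR adjusted p = 0.000206, 0.000386 and 0.000890). The WDR35 and MBOAT2 calls held when any 1 library was left out.

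RHOB measured 15.8 and 15.2 CPM in clone B5, 8.46 and 9.10 in clone C1 and 10.5 and 12.3 in clone C5, against 21.1 and 26.6 in parental cells. The clone and parental libraries did not overlap, and the log2 fold changes were -0.62 ± 0.16, -1.44 ± 0.16 and -1.06 ± 0.16 (edgeR adjusted p = 0.0215, 0.000539 and 0.00202). The clone B5 call was lost without parental replicate 2 (adjusted p = 0.175). RHOB was thus called lower in the 3 KMS27 clones. RHOB was also lower in KMS12PE clone D, on 17 and 22 counts against 79 and 62 in parental cells. Its call there was lost in 1 of the fits that left out 1 library, with log2 fold changes of -2.60 to -2.08. The KMS12PE values describe the choice of members and lend the KMS27 calls no support. In KMS12PE clone C it lay below both parental libraries without a call, and clone A overlapped them.

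Other members changed in some KMS27 clones only, and whether the clones differ was not tested. HS1BP3, a membrane traffic protein that binds HCLS1, rose in clones C1 and C5: it measured 14.2 and 16.0 CPM in clone B5, 21.2 and 19.9 in clone C1 and 18.1 and 19.8 in clone C5, against 10.8 and 14.0 in parental cells (0.73 ± 0.15 and 0.61 ± 0.16, edgeR adjusted p = 0.0112 and 0.0241). ADCY3, an enzyme that makes cyclic AMP, rose in the same clones: 83.9 and 91.2 CPM in clone B5, 121 and 108 in clone C1 and 113 and 114 in clone C5, against 83.7 and 79.9 in parental cells (0.48 ± 0.11 and 0.47 ± 0.11, edgeR adjusted p = 0.0133 and 0.0143). Both genes had every clone C1 and C5 library above both parental libraries. Without parental replicate 1 neither gene was called in clone C1 or C5. HS1BP3 also lost its calls without clone C1 replicate 1 (in C1) and without either clone C5 library (in C5), with adjusted p up to 0.0991 in clone C1 and 0.190 in clone C5. ADCY3 lost its calls without parental replicate 2, without clone C1 replicate 1 (in C1) and without either clone C5 library (in C5), with adjusted p up to 0.121 and 0.116.

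NCOA1 rose in clone C5, where it measured 91.2 and 94.3 CPM, with 67.1 and 63.3 in clone B5 and 74.5 and 69.0 in clone C1, against 59.8 and 56.5 in parental cells (0.67 ± 0.10, edgeR adjusted p = 0.00213), a call that held without any 1 library. ID2, an inhibitor of basic helix-loop-helix factors, measured 33.1 and 31.3 CPM in clone C5, with 20.6 and 16.9 in clone B5 and 14.5 and 18.1 in clone C1, against 19.4 and 19.5 in parental cells (0.73 ± 0.15 in clone C5, edgeR adjusted p = 0.00980). ID2 was not called without either parental or either clone C5 library (adjusted p up to 0.0789). CAD rose in clone C5 as well, to 253 and 237 CPM, with 197 and 209 in clone B5 and 229.5 and 212 in clone C1, against 190.3 and 175 in parental cells (0.42 ± 0.11, edgeR adjusted p = 0.0299), and lost the call without any 1 parental, clone C1 or clone C5 library (adjusted p up to 0.218).

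YWHAQ rose in clone B5, to 309.9 and 403 CPM, with 210.0 and 238 in clone C1 and 264 and 234 in clone C5, against 193 and 218 in parental cells (0.79 ± 0.16, edgeR adjusted p = 0.00766), and lost the call without parental replicate 1 (adjusted p = 0.0752). TAF1B measured 23.2 and 22.3 CPM in clone B5, 11.8 and 13.0 in clone C1 and 17.6 and 17.7 in clone C5, against 16.3 and 17.6 in parental cells. It was called higher in clone B5 (0.42 ± 0.12, edgeR adjusted p = 0.0397) and lower in clone C1 (-0.46 ± 0.12, edgeR adjusted p = 0.0303). The clone B5 call was lost with DESeq2 and without any 1 library, and the clone C1 call without any 1 parental, clone C1 or clone C5 library (adjusted p up to 0.231 and 0.185).

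The other calls in KMS27 were lower. In clone C1, ADI1 (an enzyme of methionine salvage), TP53I3, SMC6 and RNASEH1 fell, with log2 fold changes of -0.75 ± 0.17, -1.01 ± 0.24, -0.59 ± 0.17 and -0.44 ± 0.13 (edgeR adjusted p = 0.0167, 0.0180, 0.0396 and 0.0449). RNASEH1 also fell in clone C5 (-0.49 ± 0.14, edgeR adjusted p = 0.0344). Each of these calls was lost when a library of the parental cells or of the clone itself was left out: ADI1 without parental replicate 2 or either clone C1 library (adjusted p up to 0.131), TP53I3 without either parental library or clone C1 replicate 1 (up to 0.146), and SMC6 and RNASEH1 without any 1 parental, clone C1 or clone C5 library (up to 0.207 for SMC6, and 0.269 and 0.247 for RNASEH1 in clones C1 and C5). ODC1, HADHA, ADAM17, DDX1, CPSF3, E2F6, ROCK2, GEN1 and IAH1 were not called in any KMS27 clone. Their log2 fold changes lay between -0.31 (E2F6, clone B5) and 0.29 (ADAM17, clone C1), apart from -0.53 for ROCK2 and -0.65 for GEN1 in clone C1.

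**Figure D5:**
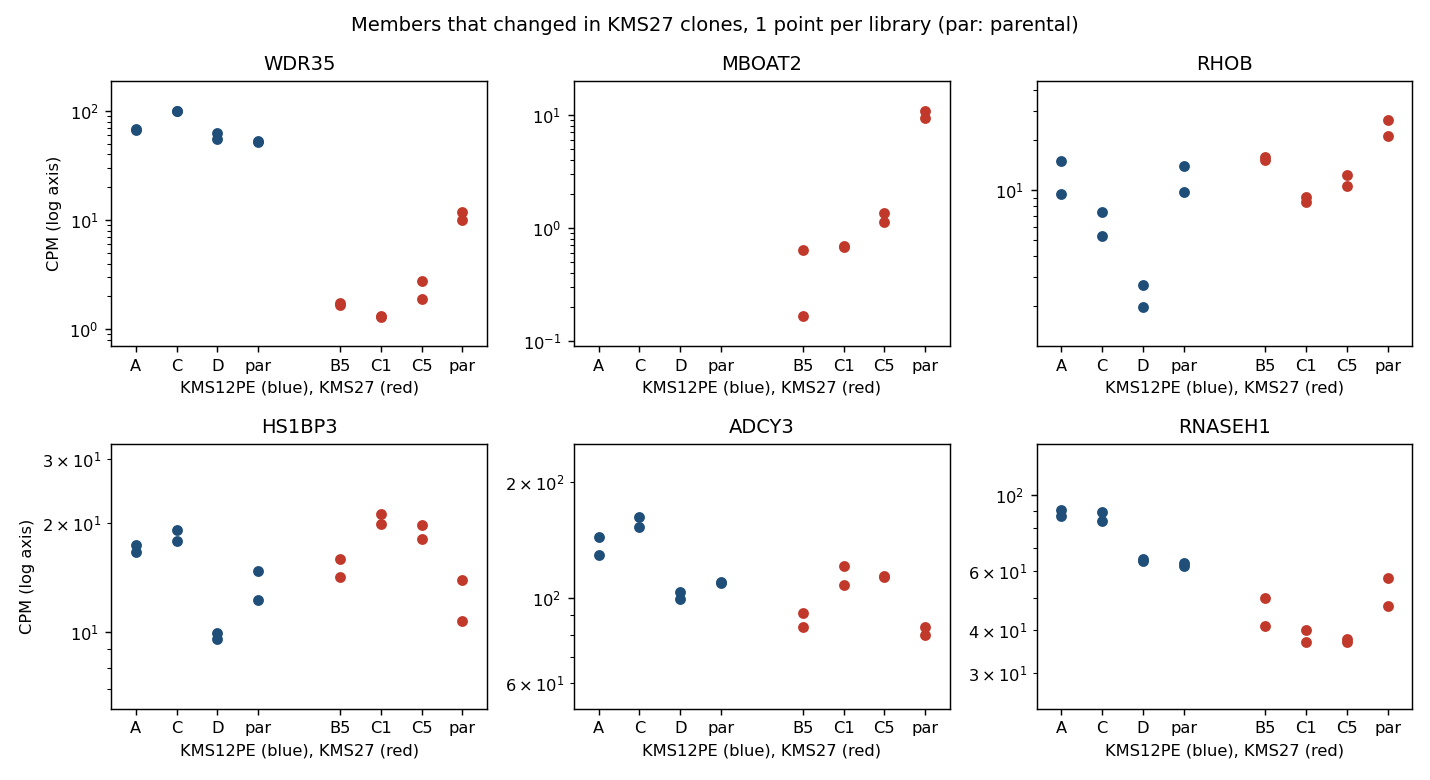
CPM on a log axis (y axis) of 6 members that changed in KMS27 clones, 1 point per library, by population (x axis: clones, then parental as par; KMS12PE blue, KMS27 red). WDR35, MBOAT2 and RHOB are below both parental points in all 3 KMS27 clones; WDR35 is above parental in the KMS12PE clones, where MBOAT2 is not listed.

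As facts of the whole series, library totals ran from 5831289 to 13674426 counts in KMS12PE, where the parental libraries were the smallest, and from 20257318 to 52615971 in KMS27. The labelled cell type was checked against its markers: all 10 plasma cell markers and the t(11;14) gene CCND1 were listed in both lines. Summed plasma cell markers were 2928 to 3716 CPM in KMS12PE and 5672 to 11671 CPM in KMS27. Some single markers varied widely between libraries. POU2AF1, a B lineage coactivator, ran from 0 to 35.3 CPM in KMS12PE, and CD38 ran from 2.36 to 111 CPM in KMS27. The parental libraries had sums of 3382 to 3716 CPM in KMS12PE and 9924 to 11671 CPM in KMS27, the upper end of each range, and the part of this in the results was not tested. Of 4 T cell and 4 B cell markers, CD8A alone was listed in KMS12PE (1.89 to 5.51 CPM). In KMS27 MS4A1, PAX5, CD3E and the stromal PDGFRB were listed, with B cell sums of 13.8 to 14.9 CPM in parental cells and higher ones in some clones. No myeloid or erythroid marker was listed in either line. In these bulk libraries fewer cells with a transcript and less of it per cell cannot be told apart.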

How the data were processed

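RNA was measured in 16 libraries, 2 per population, from 200 ng of RNA each, per the labels' protocols. The authors deposited whole-number counts per gene symbol, 1 table per line, without normalization. The submitters' processing notes name hg38; the aligner, the counter, its annotation and its use of strand: not given in the sources used here. Every listed gene has at least 5 counts in at least 4 libraries, as a check of the values showed, so a gene off in most populations has no row. Members and lists were chosen with earlier results of these data known, and the partner genes were picked for their known work with members. Named members were a set chosen for their known roles, the 5 highest and 5 lowest over clones A and C, and up to 5 called per KMS27 clone; the further KMS27 calls are named to complete the counts.

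Each line was fitted alone in edgeR 4.0.16 (R 4.3.3): filterByExpr left 12279 genes in KMS12PE and 14088 in KMS27, with TMM scaling, a mean per population, glmQLFit and 2-sided glmQLFTest, and Benjamini-Hochberg adjustment over all genes tested, called under 0.05. The SE is the log2 fold change divided by the root of F. CPM use TMM-scaled library sizes, and library ratios add 0.5 CPM. The edgeR estimate of variation between the 2 libraries of a population, beyond counting error, was 11.9% in KMS12PE and 14.3% in KMS27. At the floor of 3 counts CPM was 0.212 to 0.527 in KMS12PE and 0.0596 to 0.160 in KMS27, counting error only. Positions are from GENCODE 29 by symbol, then RefSeq (GRCh38.p14) by symbol or synonym; 949 listed symbols of KMS12PE and 1855 of KMS27 were not placed. Same-numbered KMS12PE libraries deviated together over genes (correlations 0.254 to 0.537 for the 6 pairs of populations), though no label gives the source of the number. The main fit did not use this pairing, so its SE, p-values and counts do not account for it. A fit with the replicate number as a block was run as an alternative. Alternatives were size factors as DESeq2 takes them, no filter, the DESeq2 1.42.0 Wald test, the block, leaving out each library, only members of at least 5 log2 CPM, and windows of 20 or 5 Mb; the split at 30 Mb was added after seeing the data. The fit was tested on simulated data.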

Additional observations from a re-analysis of the deposited data

Results flagged for a closer look

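WDR35 moved in opposite directions in the 2 lines, which is why it stands out: all 6 KMS12PE clone libraries lay above both parental libraries, with a mean log2 fold change of 0.4926 over the 3 clones, and all 6 KMS27 clone libraries lay below both parental libraries, with a mean of -2.65. The KMS12PE mean covers 0.36 in clone A, 0.94 in clone C and 0.18 in clone D, with a call in clone C alone. The members were chosen for being higher in clones A and C, so the KMS12PE side describes that choice. The difference between the lines was not tested.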

How the results depend on the processing

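The medians of the 54 members in KMS12PE clones A and C stayed above 0 under every alternative run except, in clone A, the restriction to members from 30 Mb on, where the medians were -0.12 (clone A), 0.00437 (C) and 0.11 (D), and -0.068 in KMS27 clone B5. Leaving out 1 library gave medians of 0.29 to 0.35 in clone A, 0.49 to 0.54 in C, -0.034 to 0.049 in D, -0.028 to 0.026 in B5, -0.042 to 0.024 in C1 and 0.026 to 0.10 in C5. Members called ranged from 0 to 2 (A), 3 to 28 (C), 0 to 3 (D), 3 to 16 (B5), 3 to 19 (C1) and 4 to 11 (C5), and partners called from 0 to 0 (A), 1 to 1 (C) and 1 to 2 (D). DESeq2 called 8 members in clone A. With the replicate block, members called were 32, 43 and 9 in clones A, C and D and partners 1, 5 and 22. In KMS27, where the main fit had no block either (correlations 0.0597 to 0.444), the block gave 6, 14 and 10 members in B5, C1 and C5. Members of at least 5 log2 CPM had medians of 0.022, 0.037 and 0.068 in B5, C1 and C5.

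Windows of 20 Mb spread the step over 20 to 40 Mb (0.26 in clone A, 0.43 in C) and gave -0.00455 before 20 Mb and 0.00847 after it in D. In KMS27 they gave 0.016 for B5 (10 to 20 Mb), -0.076 for C1 (0 to 20 Mb), and -0.000852 (0 to 10 Mb) and 0.015 (30 to 40 Mb) for C5. Windows of 5 Mb gave 0.092 for D from 35 Mb, -0.051 and -0.068 for B5 from 5 and 35 Mb, and -0.00986 for C1 and 0.097 for C5 from 5 Mb; some held too few genes for a value. The cause of these changes was not tested. Over all genes the block moved the counts called to 448, 869 and 2019 in clones A, C and D, from 55, 219 and 634, and DESeq2 to 96 in A. For single genes, 1886 of the alternative values kept sign and call, 56 changed sign without a call in either fit, 141 lost and 77 gained a call, and 0 called values changed sign. The smaller KMS12PE libraries limit what low genes such as KLF11 and TP53I3 can show.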

Other observations

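Some neighbours of the stretch that are not members changed by at least 1 on the log2 scale among called genes, and are named here after their values were seen. KHK, the enzyme that phosphorylates fructose, measured 8.81 and 9.81 CPM in clone C, with 7.42 and 6.04 in clone A and 5.20 and 4.54 in clone D, against 2.81 and 3.77 in parental cells; its log2 fold change of 1.49 ± 0.25 in clone C was above the shift of the stretch. MYCN, the MYC family member of 2p, had 0 counts in both clone D libraries, against 24 and 40 counts in parental cells. Scaled to library size, it measured 4.27 and 5.65 CPM in clone A and 5.02 and 6.56 in clone C. The parental libraries had 4.22 and 6.28 CPM, so clones A and C overlapped them. LTBP1, a matrix protein that binds latent TGF-beta, measured 0.631 and 0.623 CPM in clone D, against 12.5 and 13.5 in parental cells. It had 13.0 and 12.3 CPM in clone A and 19.7 and 17.4 in clone C. QPCT, a glutaminyl cyclase, measured 13.6 and 12.6 CPM in clone D, against 26.3 and 30.3 in parental cells. It had 37.6 and 32.9 CPM in clone A and 41.7 and 41.0 in clone C. Both genes start beyond the 30 Mb step. Even so, LTBP1 in clone C and QPCT in clones A and C lay above both parental libraries. ZNF513, a zinc finger protein before the step, measured 3.00 and 5.07 CPM in clone D, against 0.703 and 1.10 in parental cells. It had 1.35 and 1.55 CPM in clone A and 0.617 and 1.27 in clone C, where it overlapped the parental libraries. YPEL5 had 0 and 1 counts (0 and 0.0890 CPM) in clone D, against 6 and 5 (1.05 and 0.786 CPM) in parental cells.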
